A study of Mus musculus with 20 samples.

Results

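Glycolysis, the pentose phosphate pathway and the branch point at pyruvate were followed through 40 genes, taken by symbol from the deposited count tables of cultured thymic group 2 innate lymphoid cells (ILC2). Of the 40 genes, 37 had a row among the 11668 genes that the tables list between them. All 37 were in the table of IL25R+ cells and 36, all but Aldoc, in that of ST2+ cells. Slc16a1, Pfkp and Tkt had no row and were not analysed here. The cells were IL25R+ or ST2+ ILC2 sorted from the thymus of young wild-type male mice, where IL25R is the receptor for IL-25 and ST2 the receptor for IL-33. Every group was kept ex vivo with IL-7 (10 ng/mL), with fresh medium after 12 h and a further 24 h of culture, before 24 h of treatment. IL25R+ cells received PBS vehicle, recombinant IL-25 (10 ng/mL), recombinant IL-33 (10 ng/mL) or both, in 3 libraries per group, and ST2+ cells received vehicle or IL-33 (10 ng/mL), in 4 libraries per group. RNA was counted at the 3' end by bulk MARS-seq. The labels do not say whether replicates of a group came from separate mice or cultures, so a p-value measures the spread between these libraries, which may be technical.

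Glycolysis splits glucose into pyruvate, which lactate dehydrogenase reduces to lactate or which mitochondria take up through the pyruvate carrier and oxidise through the pyruvate dehydrogenase complex. The pentose phosphate pathway branches off at glucose 6-phosphate and yields NADPH and ribose for lipid and nucleotide synthesis. Activated lymphocytes commonly raise glycolysis, and HIF-1 and MYC are transcription factors known to drive many of its genes, HIF-1 through sites that hold ACGTG or GCGTG and MYC through sites that hold CACGTG.

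Total counts ran from 834913 to 1880906 per library in IL25R+ cells and from 537999 to 5453444 in ST2+ cells. Levels below are CPM, counts scaled to a common library total, on library sizes scaled by the trimmed mean of M-values (TMM), computed within each table, so a level of one population is set beside that of the other only as a description. Of 14 ILC2 markers, 13 had a row in IL25R+ cells, with a summed level of 3674 to 4570.4 CPM per library, and all 14 in ST2+ cells, with 3855 to 5002 CPM in vehicle libraries and 5674 to 16378 CPM with IL-33. The libraries stood apart from each other in several ways. In IL25R+ cells Glycam1 was above 10 CPM in the vehicle libraries, IL-33 replicate 3 and the libraries with both cytokines, and below it in the IL-25 libraries and IL-33 replicates 1 and 2, so the split runs through the IL-33 group alone. In ST2+ cells replicates 1 and 4 of each group were the deeper libraries, and IL-33 replicate 2 stood apart from its group, with a TMM factor of 0.761 against 0.968 to 1.10 for the others. Proliferation markers also moved in IL25R+ cells: the summed level of 10 cycling-cell genes was 241 to 309 CPM with vehicle, 766 to 945 CPM with IL-25, 333 to 374 CPM with IL-33 and 776 to 916 CPM with both. In ST2+ cells it was 1242 to 1648 CPM with vehicle and 1202 to 1988 CPM with IL-33. All 10 had a row in both tables, and Cdk1 had no count in the 3 IL-33 libraries of IL25R+ cells. The summed level of the 8 listed of 10 T-cell and thymocyte markers was 1445 to 1501 CPM with vehicle, 1059 to 1289 CPM with IL-25, 1403 to 1615 CPM with IL-33 and 902 to 989 CPM with both, and that of the 7 listed in ST2+ cells was 101 to 226 CPM with vehicle and 30.3 to 97.3 CPM with IL-33. Every ST2+ IL-33 library was thus below every vehicle library for these markers. Of the 5 tested there Cd3g passed as lower, and their median log2 change was -1.41. The 2 listed of 6 B-cell markers summed to 18.9 to 31.1 CPM with vehicle and 32.3 to 51.2 CPM with IL-33 in ST2+ cells, again without overlap. Antigen-presentation genes of the myeloid and dendritic list (Cd74, H2-Aa, H2-Ab1 and H2-Eb1) were lower with IL-25 than with vehicle, 4 of the 6 tested. Of all genes 5.9% passed as lower there. The summed level of its 8 listed genes was 426 to 621 CPM with vehicle and 398 to 422 CPM with IL-25. It was 307 to 423 CPM with IL-33 and 485 to 516 CPM with both. Sums of other lists were higher with IL-25 than with vehicle, without overlap. They were 203 to 283 against 135 to 195 CPM for 2 B-cell markers. For 3 fibroblast and endothelium markers they were 153 to 169 against 99.4 to 107 CPM, and for 2 mast cell markers 191 to 227 against 138 to 155 CPM. In IL-33 replicate 1 of IL25R+ cells the 2 listed of 9 thymic epithelium and tuft cell markers, Aire and Epcam, summed to 10826 CPM against 4.69 to 46.7 CPM in the other libraries of that table. In ST2+ vehicle replicate 3 the 6 listed of 7 fibroblast and endothelium markers summed to 494 CPM, against 29.5 to 42.5 CPM in the other vehicle libraries. Gzma, the 1 listed of 6 NK cell and ILC1 markers in IL25R+ cells, was at 253 to 267 CPM with vehicle. It was at 134 to 161 CPM with IL-25, 167 to 297 CPM with IL-33 and 96.6 to 125 CPM with both. The part of cycling or of other cells in the results was not tested, and in bulk RNA fewer cells of a type and less RNA per cell cannot be told apart.

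Of the 37 genes, 35 passed the filter on low counts in the IL25R+ table, 33 in that of ST2+ cells and 36 in a fit of all 20 libraries, and 18 passed the test in at least 1 of the 9 comparisons made. The comparisons share libraries, and the share of all genes that passed at least once was not computed, so this count has no background beside it. A gene passed where the adjusted p of edgeR's quasi-likelihood test, taken over all genes of the fit, was under 0.05, and each change below is a log2 change with its SE. With IL-25, 7 of the 35 tested genes passed as higher in IL25R+ cells (Slc16a3, Aldoa, Tpi1, Gapdh, Ldha, Pgls and Taldo1) and 3 as lower (Pfkfb3, Ldhb and Pdk1). Gapdh is included in the counts and shares here although its call with IL-25 rested on replicate 3, and it is given apart below. Of all 8850 genes tested 15% passed in this comparison, 9.07% as higher and 5.9% as lower, against 28.6% of the members in all, 20% as higher and 8.57% as lower. Both cytokines together raised 8 (Aldoa, Tpi1, Gapdh, Pgam1, Ldha, Mpc2, G6pdx and Pgd) and lowered 2 (Ldhb and Pdk1), again 28.6% of the members against 15.6% of all genes, 8.97% as higher and 6.67% as lower. IL-33 alone changed none of the 35 by edgeR, where 0.237% of all genes passed. At an unadjusted p under 0.05 there were 6 members, and DESeq2 also called 0. In ST2+ cells IL-33 raised 7 of 33 (Slc16a3, Pfkl, Aldoa, Pkm, Ldha, G6pdx and Pgd) and lowered 2 (Ldhb and Mpc1), 27.3% of the members against 16.5% of 7626 genes, 8.52% as higher and 8.03% as lower. Vehicle and IL-25 libraries lay wholly on opposite sides of the Glycam1 split. A term for it is therefore estimated from IL-33 replicate 3 against IL-33 replicates 1 and 2. Calls kept or lost with it cannot tell IL-25 from the split. With this term the IL-25 comparison called 4 members (Aldoa, Tpi1, Mpc2 and Pgls, all higher) in place of 10. In the deeper ST2+ libraries alone IL-33 called 20, 15 of them higher, in place of 9. Calls over all genes moved the same way, from 1325 to 645 with the Glycam1 term and from 1262 to 3364 in the deeper ST2+ libraries. Of the 12 added there, Slc2a1, Hk1, Pgm1, Pgm2, Tpi1, Pdk3 and Bnip3 were higher and Pgk1, Eno1 and Pgls lower, and Pgam1 and Pdk1 had not passed the filter with all 8 libraries. On plain library totals Ldha, G6pdx and Pgd lost the call with both cytokines (edgeR adjusted p 0.0839 to 0.122) and Ldha that in ST2+ cells (edgeR adjusted p = 0.0643).

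The median log2 change over the tested members was 0.21 with IL-25, -0.03 with IL-33 and 0.27 with both in IL25R+ cells and 0.36 with IL-33 in ST2+ cells, beside -0.03, 0.01, -0.03 and 0.00 over all genes. In IL25R+ cells 6 genes passed the same way with IL-25 and with both cytokines (Aldoa, Tpi1, Gapdh and Ldha higher, Ldhb and Pdk1 lower), although those comparisons share the vehicle libraries. Among them, Gapdh passed with IL-25 on a single high replicate. In both populations 6 genes passed the same way against their own vehicle at least in 1 comparison each: Slc16a3, Aldoa, Ldha, G6pdx and Pgd higher, and Ldhb lower. For neither overlap was the share of all genes computed, so no excess among the members is read from these counts.

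**Figure D1:**
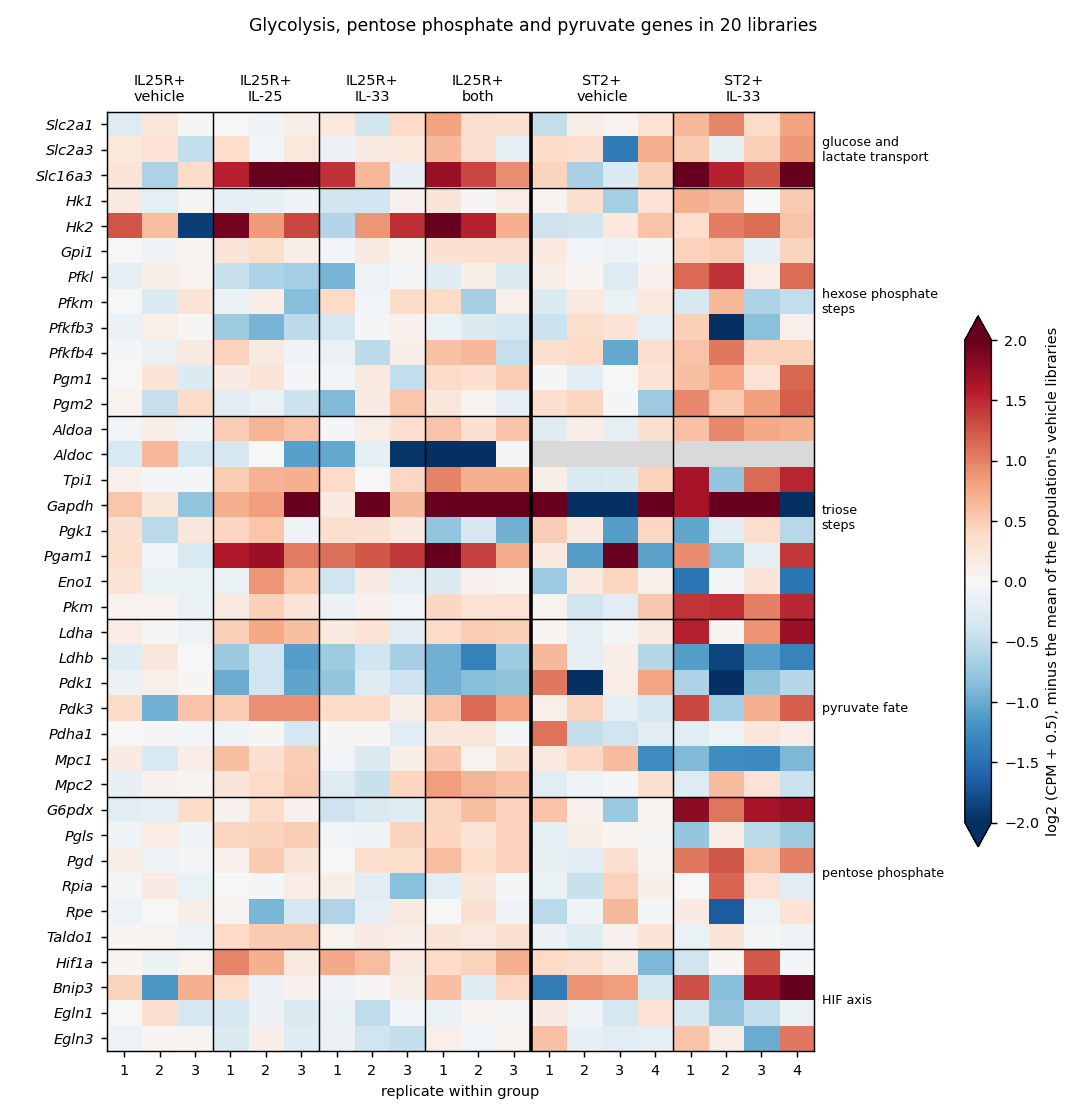
Levels of the 37 listed genes in the 20 libraries, as log2 of CPM plus a pseudocount of 0.5 minus the mean of the vehicle libraries of the same population. Rows are grouped by role, columns are replicates within groups, colours are cut at -2 and 2 and grey marks a gene with no row. Slc16a3, Aldoa and Tpi1 are red and Ldhb and Pdk1 blue in the IL-25 and combined-treatment libraries of IL25R+ cells, and Gapdh varies between replicates.

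The promoters of these 6 genes are shown because the genes passed the same way in both populations, each as the 250 bases before to 50 bases after the first start that RefSeq lists for the gene on mouse build GRCm38.p6, written along the gene's own strand. Capitals mark each ACGTG or GCGTG, the letters that HIF-1 sites hold, and their reverse complements, CACGT or CACGC. The letters of MYC sites, CACGTG, overlap both ACGTG and CACGT and are in capitals too. The windows are chr11:120948817-120949116, plus strand, for Slc16a3, chr7:126800398-126800697, minus strand, for Aldoa, chr7:46845554-46845853, plus strand, for Ldha, chr6:142507908-142508207, minus strand, for Ldhb, chrX:74428831-74429130, minus strand, for G6pdx, and chr4:149166656-149166955, minus strand, for Pgd.
Slc16a3: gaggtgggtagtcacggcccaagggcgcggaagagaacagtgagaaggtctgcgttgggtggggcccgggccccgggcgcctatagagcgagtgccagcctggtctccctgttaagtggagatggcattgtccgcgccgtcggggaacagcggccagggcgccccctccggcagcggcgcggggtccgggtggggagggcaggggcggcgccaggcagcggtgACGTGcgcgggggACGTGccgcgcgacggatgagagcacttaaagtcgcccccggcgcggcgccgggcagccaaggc
Aldoa: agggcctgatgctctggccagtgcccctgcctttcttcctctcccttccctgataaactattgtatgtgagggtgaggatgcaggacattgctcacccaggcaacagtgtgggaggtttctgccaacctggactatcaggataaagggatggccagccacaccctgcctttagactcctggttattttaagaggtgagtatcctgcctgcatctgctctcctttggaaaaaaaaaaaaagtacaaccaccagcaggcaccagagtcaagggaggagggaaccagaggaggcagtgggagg
Ldha: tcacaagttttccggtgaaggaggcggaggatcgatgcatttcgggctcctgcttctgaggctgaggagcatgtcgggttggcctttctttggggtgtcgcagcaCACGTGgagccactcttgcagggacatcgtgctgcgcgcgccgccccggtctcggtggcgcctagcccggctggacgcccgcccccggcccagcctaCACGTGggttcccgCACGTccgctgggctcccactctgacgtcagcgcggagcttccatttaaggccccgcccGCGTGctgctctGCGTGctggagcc
Ldhb: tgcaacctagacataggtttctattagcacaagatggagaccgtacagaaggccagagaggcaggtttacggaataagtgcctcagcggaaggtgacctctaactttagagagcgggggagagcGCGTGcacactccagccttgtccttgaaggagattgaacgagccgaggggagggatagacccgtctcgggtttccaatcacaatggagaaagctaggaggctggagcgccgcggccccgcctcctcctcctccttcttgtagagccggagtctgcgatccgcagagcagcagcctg
G6pdx: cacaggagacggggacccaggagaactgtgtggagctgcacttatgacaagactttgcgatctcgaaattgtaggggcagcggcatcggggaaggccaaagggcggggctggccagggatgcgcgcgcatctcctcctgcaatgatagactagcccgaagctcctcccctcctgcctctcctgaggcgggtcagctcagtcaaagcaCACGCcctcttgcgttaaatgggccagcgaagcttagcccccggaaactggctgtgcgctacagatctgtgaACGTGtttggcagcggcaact
Pgd: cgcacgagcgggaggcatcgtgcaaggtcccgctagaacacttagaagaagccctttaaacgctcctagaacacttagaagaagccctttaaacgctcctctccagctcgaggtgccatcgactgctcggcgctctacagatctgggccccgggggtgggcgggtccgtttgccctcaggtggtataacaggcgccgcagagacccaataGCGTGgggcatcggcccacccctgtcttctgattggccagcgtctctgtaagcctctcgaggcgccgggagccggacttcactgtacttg

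Ldha, which encodes the lactate dehydrogenase subunit that favours lactate, held 7 matches, with overlaps and both strands counted, and 2 CACGTG among them. Slc16a3 and G6pdx held 2 matches each, Ldhb and Pgd 1 each and Aldoa 0. RefSeq lists 3 starts for Aldoa and 2 each for Ldha and Pgd, of which the first alone was searched. Of the 39 members whose promoter RefSeq lists, 33, or 84.6%, held ACGTG or GCGTG on either strand, against 43.8% of 27025 promoters of the same length, and 5, or 12.8%, held CACGTG, against 7.24%. The median GC content was 62.0% in member promoters and 52.7% in all, and both motifs hold CG, so base composition differs along with the match. A match is a run of letters and not a bound site.

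Slc16a3 encodes MCT4, a monocarboxylate carrier that exports lactate. In IL25R+ cells it stood at 2.62, 1.17 and 2.85 CPM with vehicle, 7.13, 11.3 and 10.4 CPM with IL-25, 6.57, 3.62 and 1.85 CPM with IL-33 and 7.99, 6.02 and 4.46 CPM with both cytokines. All 3 IL-25 libraries were above all 3 vehicle libraries, on vehicle counts of only 4, 1 and 3. Those counts lie under the filter's minimum count of 10, so Slc16a3 entered the test through treated libraries, where it was higher. The lack of overlap is thus no separate support. The log2 change was 2.01 ± 0.52 (edgeR adjusted p = 0.0112) with IL-25, and 1.36 ± 0.55 (edgeR adjusted p = 0.102) with both, which did not pass. In ST2+ cells Slc16a3 stood at 96.3, 45.2, 58.5 and 99.2 CPM with vehicle and 366, 206, 169 and 417 CPM with IL-33, with no overlap, and rose by 1.92 ± 0.35 (edgeR adjusted p = 0.00492). Its vehicle level was 2.21 ± 0.908 CPM (SD, n = 3) in IL25R+ cells and 74.8 ± 27.1 CPM (SD, n = 4) in ST2+ cells, each scaled within its own table, so the gap was not tested. Both calls kept their side of the threshold with each library left out. A term for the Glycam1 split, estimated within the IL-33 group alone, put the IL-25 change at 0.59 (edgeR adjusted p = 0.84).

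The glucose carriers did not pass in any comparison. Slc2a1, which encodes GLUT1, stood at 27.5, 38.7 and 33.2 CPM with vehicle, 33, 31.2 and 35.5 CPM with IL-25, 38.0, 25.3 and 43.4 CPM with IL-33 and 57.4, 41.0 and 40.8 CPM with both cytokines in IL25R+ cells and at 35.2, 54.2, 51.6 and 60.3 CPM with vehicle and 78.3, 98, 64.7 and 86.6 CPM with IL-33 in ST2+ cells. Each ST2+ IL-33 library was above each vehicle library, with a change of 0.70 ± 0.23 (edgeR adjusted p = 0.062). DESeq2 called it higher there (adjusted p = 0.0349). Slc2a3, which encodes GLUT3, lay between 3.44 and 18.5 CPM over the 20 libraries, with changes from -0.10 to 0.25 on the log2 scale.

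Among the steps on hexose phosphates, Hk2, an inducible hexokinase that traps glucose as glucose 6-phosphate, was scarce. It stood at 3.92, 2.34 and 0 CPM with vehicle, 6.48, 2.83 and 4.17 CPM with IL-25, 0.731, 2.89 and 4.62 CPM with IL-33 and 10.2, 4.92 and 2.55 CPM with both cytokines in IL25R+ cells, where it did not pass the filter on low counts. The library at 0 allows up to 2.83 CPM, the level of 3 counts there, an allowance that covers counting error only. In ST2+ cells Hk2 stood at 8.80, 9.03, 13.8 and 17.8 CPM with vehicle and 15.3, 24.5, 26.2 and 17.8 CPM with IL-33, with 1 vehicle library above 1 IL-33 library, and the change was 0.70 ± 0.34 (edgeR adjusted p = 0.187).

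Pfkl, the liver-type subunit of phosphofructokinase, which commits fructose 6-phosphate to glycolysis, stood at 44.5, 55.1 and 53.1 CPM with vehicle, 36.9, 32.6 and 31.3 CPM with IL-25, 26.3, 47.0 and 49.9 CPM with IL-33 and 42.9, 55.3 and 42 CPM with both cytokines in IL25R+ cells. The IL-25 libraries all lay below the vehicle libraries, yet the change of -0.58 ± 0.22 (edgeR adjusted p = 0.0721) did not pass. Its ST2+ levels were 77.1, 72.3, 58.5 and 74.4 CPM with vehicle and 154, 193, 77.5 and 152 CPM with IL-33. The groups touched without overlap, since the lowest IL-33 library was just above the highest vehicle library, and Pfkl rose by 1.02 ± 0.27 (edgeR adjusted p = 0.0253). Leaving out vehicle replicate 1, 2, 3 or 4, or IL-33 replicate 1 or 4, ended this call (edgeR adjusted p 0.0503 to 0.0773).

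Pfkfb3 makes fructose 2,6-bisphosphate, an activator of phosphofructokinase. It stood at 35.3, 41.0 and 38.9 CPM with vehicle, 23.3, 19.8 and 26.4 CPM with IL-25, 30.0, 37.6 and 40.6 CPM with IL-33 and 34.9, 31.7 and 29.9 CPM with both cytokines in IL25R+ cells. The 3 IL-25 libraries were the lowest of the 12, and the change was -0.71 ± 0.21 (edgeR adjusted p = 0.0222) with IL-25 against -0.09 ± 0.20 (edgeR adjusted p = 0.911) with IL-33 and -0.25 ± 0.20 (edgeR adjusted p = 0.433) with both. The IL-25 call was lost without vehicle replicate 2 or 3 or IL-25 replicate 1 or 2 (edgeR adjusted p 0.0615 to 0.0945) and by DESeq2 (adjusted p = 0.0608). In ST2+ cells Pfkfb3 stood at 10.4, 18.1, 17.2 and 12.2 CPM with vehicle and 19.9, 2.23, 7.68 and 15.1 CPM with IL-33, with overlap and no call. The other listed genes of these steps, Hk1, Gpi1, Pfkm, Pfkfb4, Pgm1 and Pgm2, did not pass in any comparison. The smallest edgeR adjusted p among them was 0.0592, for Gpi1, the isomerase between glucose 6-phosphate and fructose 6-phosphate, with both cytokines against vehicle. DESeq2 called Gpi1 higher there (adjusted p = 0.0468).

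**Figure D2:**
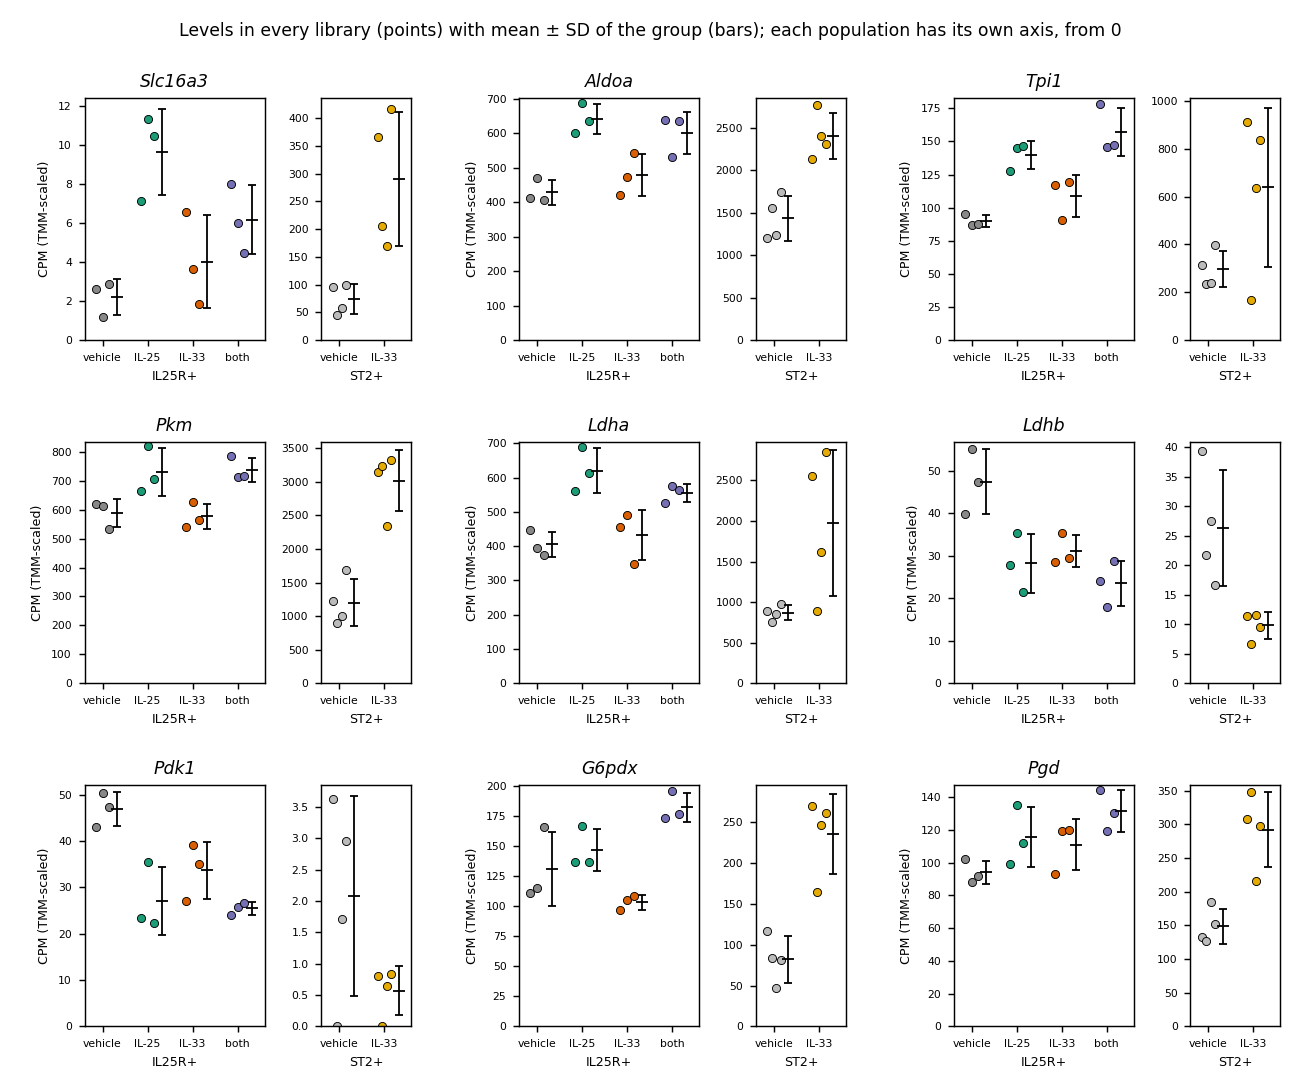
CPM of 9 members in every library (points) with the group mean and SD (bars), for IL25R+ cells on the left of each pair of panels and ST2+ cells on the right, each on its own linear axis from 0. Ldhb and Pdk1 lie lower and Aldoa, Tpi1 and Ldha higher with IL-25 than with vehicle, and in ST2+ cells Pkm, G6pdx and Pgd lie higher with IL-33 than with vehicle in every library.

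Aldoa, the aldolase that splits fructose 1,6-bisphosphate into trioses, stood at 411, 471 and 406 CPM with vehicle, 600.0, 687 and 637 CPM with IL-25, 422, 475 and 543 CPM with IL-33 and 638, 531 and 635 CPM with both cytokines in IL25R+ cells. Every library with IL-25 or with both was above every vehicle library. It rose by 0.58 ± 0.12 (edgeR adjusted p = 0.0028) with IL-25 and by 0.49 ± 0.12 (edgeR adjusted p = 0.00981) with both. Among ST2+ libraries it was at 1199, 1559, 1237 and 1747 CPM with vehicle and 2136, 2772, 2405 and 2311 CPM with IL-33, again with no overlap, and rose by 0.74 ± 0.22 (edgeR adjusted p = 0.0431). The call with IL-25 was kept with each library left out. It was also kept with the term for the Glycam1 split, though that term is estimated within the IL-33 group alone. The call with both was lost without vehicle replicate 1 or 3 or combined-treatment replicate 3 (edgeR adjusted p 0.0508 to 0.0555), and that in ST2+ cells without vehicle replicate 1, 2 or 3 or IL-33 replicate 1, 3 or 4 (edgeR adjusted p 0.0649 to 0.133) or with the replicate number as a block (edgeR adjusted p = 0.0658).

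Tpi1, which interconverts the trioses, stood at 94.8, 86.7 and 87.3 CPM with vehicle, 128, 145 and 147 CPM with IL-25, 117, 90.4 and 119 CPM with IL-33 and 178, 146 and 147 CPM with both cytokines in IL25R+ cells. Vehicle libraries lay below all libraries with IL-25 or both. It rose by 0.64 ± 0.14 (edgeR adjusted p = 0.00335) with IL-25 and by 0.80 ± 0.14 (edgeR adjusted p = 0.000336) with both, and both calls were kept with each library left out. In ST2+ cells Tpi1 stood at 313, 235, 239 and 397 CPM with vehicle and 910.4, 169, 637 and 836 CPM with IL-33. IL-33 replicate 2 was below every vehicle library while the other 3 were above them, and the change of 1.10 ± 0.42 (edgeR adjusted p = 0.0964) did not pass. Without that replicate Tpi1 was called, at 1.44 (edgeR adjusted p = 0.000895).

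Pgam1, a phosphoglycerate mutase, stood at 3.27, 2.34 and 1.90 CPM with vehicle, 8.42, 9.21 and 5.57 CPM with IL-25, 5.84, 6.51 and 7.39 CPM with IL-33 and 14.5, 7.11 and 4.46 CPM with both cytokines in IL25R+ cells, on vehicle counts of 5, 2 and 2. Each treated library was above each vehicle library. The vehicle counts lie under the filter's minimum count of 10, so Pgam1 also entered the test through treated libraries, and this lack of overlap is no separate support. The change was 1.54 ± 0.54 (edgeR adjusted p = 0.0584) with IL-25, 1.30 ± 0.57 (edgeR adjusted p = 0.365) with IL-33 and 1.67 ± 0.53 (edgeR adjusted p = 0.0343) with both, and only the last passed. That call was lost without vehicle replicate 1, 2 or 3 or combined-treatment replicate 1 or 2 (edgeR adjusted p 0.0506 to 0.197) and by DESeq2 (adjusted p = 0.0713). In ST2+ cells Pgam1 did not pass the filter, at 1.81 to 18.9 CPM.

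Eno1, the enolase that forms phosphoenolpyruvate, stood at 189, 143 and 143 CPM with vehicle, 144, 290.5 and 230.3 CPM with IL-25, 118, 176 and 137 CPM with IL-33 and 129, 166 and 161 CPM with both cytokines in IL25R+ cells. IL-25 replicates 2 and 3 were the high libraries and replicate 1 lay among the vehicle libraries. It passed only as lower with IL-33 than with IL-25, by -0.62 ± 0.20 (edgeR adjusted p = 0.0377), with overlapping groups. In ST2+ cells it stood at 167, 316, 375 and 298 CPM with vehicle and 101, 273, 332 and 101 CPM with IL-33, with overlap and no call. The last 400 bases of its transcripts are shared in full, as runs of 40 bases, by Eno1b, which held 0 to 27 counts per IL25R+ library and 0 to 60 per ST2+ library, so the counting could split reads between these genes and the values of Eno1 are uncertain.

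Pkm encodes the pyruvate kinase isoforms PKM1 and PKM2, which 3' counts do not separate here. Its ST2+ levels were 1218, 894, 1002 and 1692 CPM with vehicle and 3148, 3243, 2346 and 3329.9 CPM with IL-33. The lowest IL-33 library was above the highest vehicle library, and Pkm rose by 1.33 ± 0.26 (edgeR adjusted p = 0.00765), a call kept with each library left out. In IL25R+ cells it stood at 618, 614 and 534 CPM with vehicle, 663, 821 and 706 CPM with IL-25, 541, 626 and 565 CPM with IL-33 and 785, 712 and 717 CPM with both cytokines. All libraries with IL-25 or both were above those with vehicle, by 0.31 ± 0.12 (edgeR adjusted p = 0.0766) and 0.33 ± 0.12 (edgeR adjusted p = 0.0636), neither of which passed. DESeq2 called the change with both (adjusted p = 0.0375) and not that with IL-25. Of the other triose genes, Pgk1, a phosphoglycerate kinase that yields ATP, lay between 3.44 and 15.6 CPM and did not pass in any comparison, and Aldoc, a brain-enriched aldolase, lay between 0.547 and 8.2 CPM in IL25R+ cells and did not pass the filter.

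Lactate dehydrogenase is a tetramer of subunits encoded by Ldha and Ldhb, of which the LDHA-rich forms favour lactate. Ldha stood at 447, 394 and 376 CPM with vehicle, 560.4, 689 and 614 CPM with IL-25, 457, 489.7 and 349 CPM with IL-33 and 525, 577 and 564 CPM with both cytokines in IL25R+ cells. All libraries with IL-25 or both lay above the vehicle libraries. Ldha rose by 0.61 ± 0.13 (edgeR adjusted p = 0.0028) with IL-25 and by 0.45 ± 0.13 (edgeR adjusted p = 0.0218) with both. Among ST2+ libraries it was at 891, 757, 857 and 983 CPM with vehicle and 2559, 887, 1613 and 2846 CPM with IL-33. IL-33 replicate 2 lay within the vehicle range and the other 3 were well above it, and Ldha rose by 1.18 ± 0.33 (edgeR adjusted p = 0.0342). The IL-25 call was kept with each library left out. It was lost with the term for the Glycam1 split (0.17, edgeR adjusted p = 0.668), which is estimated within the IL-33 group alone. The call with both was lost without vehicle replicate 2 or 3 or combined-treatment replicate 2 or 3 (edgeR adjusted p 0.0602 to 0.0933), and that in ST2+ cells without vehicle replicate 1, 2, 3 or 4 or IL-33 replicate 1 or 4 (edgeR adjusted p 0.0587 to 0.11).

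Ldhb moved the other way. It stood at 39.9, 55.1 and 47.4 CPM with vehicle, 27.9, 35.4 and 21.6 CPM with IL-25, 28.5, 35.4 and 29.6 CPM with IL-33 and 24.0, 18.1 and 28.7 CPM with both cytokines in IL25R+ cells, and every treated library was below every vehicle library. Its changes were -0.72 ± 0.22 (edgeR adjusted p = 0.031) with IL-25 and -1.0 ± 0.23 (edgeR adjusted p = 0.00439) with both, both passing as lower, while the -0.58 ± 0.23 (edgeR adjusted p = 0.289) with IL-33 did not pass. In ST2+ cells it stood at 39.3, 21.7, 27.5 and 16.6 CPM with vehicle and 11.4, 6.68, 11.5 and 9.59 CPM with IL-33, with no overlap, and was lower by a log2 change of -1.39 ± 0.34 (edgeR adjusted p = 0.0198). The IL-25 call was lost without vehicle replicate 2 or 3 or IL-25 replicate 1 or 3 (edgeR adjusted p 0.0857 to 0.152) and by DESeq2 (adjusted p = 0.057), the call with both was kept with each library left out, and the ST2+ call was lost without vehicle replicate 1 or IL-33 replicate 1 or 4 (edgeR adjusted p 0.0523 to 0.0804). As a share of the counts of both genes, Ldhb made up 8.2% to 12.3% with vehicle, 3.40% to 4.89% with IL-25, 5.87% to 7.81% with IL-33 and 3.04% to 4.84% with both in IL25R+ cells. In ST2+ cells its share was 1.67% to 4.23% with vehicle and 0.336% to 0.747% with IL-33. These shares combine 2 genes already described and were not tested.

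Pdk1, a kinase that inhibits pyruvate dehydrogenase, stood at 43.2, 50.4 and 47.4 CPM with vehicle, 23.3, 35.4 and 22.3 CPM with IL-25, 27.0, 39.1 and 35.1 CPM with IL-33 and 24.0, 25.7 and 26.8 CPM with both cytokines in IL25R+ cells. Vehicle libraries were above all treated libraries. The change was -0.79 ± 0.21 (edgeR adjusted p = 0.0142) with IL-25 and -0.87 ± 0.21 (edgeR adjusted p = 0.00739) with both, and the -0.47 ± 0.21 (edgeR adjusted p = 0.38) with IL-33 did not pass. The call with both was kept with each library left out, and the IL-25 call was lost without vehicle replicate 2 or 3 or IL-25 replicate 1 or 3 (edgeR adjusted p 0.0502 to 0.0803). In ST2+ cells Pdk1 was at 3.62, 0, 1.72 and 2.96 CPM with vehicle and 0.804, 0, 0.640 and 0.841 CPM with IL-33 and did not pass the filter. The libraries at 0 allow up to 5.36 CPM with vehicle and 3.32 CPM with IL-33, for counting error only.

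Mpc1 and Mpc2 encode the partner subunits of the mitochondrial pyruvate carrier. Mpc2 stood at 124, 146 and 143 CPM with vehicle, 165, 182 and 198 CPM with IL-25, 115, 101 and 186 CPM with IL-33 and 245, 220.5 and 206 CPM with both cytokines in IL25R+ cells, and all libraries with both cytokines were above all vehicle libraries. It rose by 0.70 ± 0.17 (edgeR adjusted p = 0.00569) with both, a call lost without vehicle replicate 1 (edgeR adjusted p = 0.053). Its ST2+ levels were 273, 298, 306 and 394 CPM with vehicle and 264, 491, 385 and 234 CPM with IL-33, with overlap and no call. Mpc1 stood at 55.6, 39.8 and 55.0 CPM with vehicle, 75.8, 61.6 and 69.6 CPM with IL-25, 47.5, 40.5 and 53.6 CPM with IL-33 and 71.9, 52.0 and 61.1 CPM with both cytokines in IL25R+ cells and passed there only as lower with IL-33 than with IL-25. Among ST2+ libraries it was at 184, 213, 249.5 and 67.7 CPM with vehicle and 86.6, 67.9, 65.9 and 86.3 CPM with IL-33. Vehicle replicate 4 lay among the IL-33 libraries and the other 3 vehicle libraries above them, and Mpc1 was lower by a log2 change of -1.19 ± 0.34 (edgeR adjusted p = 0.0356). That call was lost without vehicle replicate 1, 2 or 3 or IL-33 replicate 1, 3 or 4 (edgeR adjusted p 0.0683 to 0.111), with the replicate block (edgeR adjusted p = 0.0773) and in the deeper libraries alone (-0.47, edgeR adjusted p = 0.385). Of the remaining pyruvate genes, Pdk3, another such kinase, lay between 10.5 and 50.8 CPM and Pdha1, a catalytic subunit of pyruvate dehydrogenase, between 30.7 and 119 CPM, with no call.

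G6pdx encodes glucose 6-phosphate dehydrogenase, the entry enzyme of the oxidative pentose phosphate branch. In ST2+ cells it stood at 116, 83.1, 46.5 and 81.8 CPM with vehicle and 269.8, 164, 246 and 260.2 CPM with IL-33. Each IL-33 library was above each vehicle library, and G6pdx rose by 1.5 ± 0.27 (edgeR adjusted p = 0.00506), a call kept with each library left out. In IL25R+ cells it stood at 111, 115 and 166 CPM with vehicle, 137, 166 and 136 CPM with IL-25, 96.4, 105 and 108 CPM with IL-33 and 174, 196 and 176 CPM with both cytokines. The libraries with both cytokines were the highest 3 and those with IL-33 alone the lowest 3 of the 12, and G6pdx rose by 0.48 ± 0.14 (edgeR adjusted p = 0.0251) with both. This call was lost without vehicle replicate 1 or 2 or combined-treatment replicate 2 or 3 (edgeR adjusted p 0.0533 to 0.165).

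Pgd, the dehydrogenase that releases ribulose 5-phosphate, stood at 132, 126, 184 and 152 CPM with vehicle and 307, 347, 215 and 297 CPM with IL-33 in ST2+ cells. The groups did not overlap, and Pgd rose by 0.97 ± 0.21 (edgeR adjusted p = 0.0109), kept with each library left out. In IL25R+ cells it stood at 102, 87.9 and 92.0 CPM with vehicle, 99.1, 135 and 112 CPM with IL-25, 92.8, 119 and 120.1 CPM with IL-33 and 145, 119 and 129.9 CPM with both cytokines. Libraries with both were above those with vehicle, and the rise of 0.47 ± 0.15 (edgeR adjusted p = 0.0311) was lost without vehicle replicate 1, 2 or 3 or combined-treatment replicate 1 or 3 (edgeR adjusted p 0.057 to 0.125).

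Pgls, the lactonase between these dehydrogenases, stood at 264, 310.4 and 268 CPM with vehicle, 379, 382 and 392 CPM with IL-25, 268, 267 and 383 CPM with IL-33 and 378, 338 and 385 CPM with both cytokines in IL25R+ cells, with the IL-25 libraries above all vehicle libraries. It rose by 0.46 ± 0.14 (edgeR adjusted p = 0.025) with IL-25, a call lost without vehicle replicate 1 or 3 or IL-25 replicate 1, 2 or 3 (edgeR adjusted p 0.051 to 0.113) and on plain library totals (0.28, edgeR adjusted p = 0.15). With both cytokines Pgls did not pass by edgeR and was called higher by DESeq2 (adjusted p = 0.0446). Its ST2+ levels were 488, 605, 568 and 559.8 CPM with vehicle and 323, 613, 379.7 and 337 CPM with IL-33, where the groups overlapped and no call was made. Without IL-33 replicate 2 it was called lower there (-0.65, edgeR adjusted p = 0.00808). Taldo1, the transaldolase of the non-oxidative branch, stood at 473, 485 and 429.8 CPM with vehicle, 607, 665 and 662 CPM with IL-25, 484, 517 and 505 CPM with IL-33 and 552, 528 and 579 CPM with both cytokines in IL25R+ cells. The IL-25 libraries were the highest 3 of the 12. It rose by 0.48 ± 0.11 (edgeR adjusted p = 0.00455) with IL-25, kept with each library left out but not on plain library totals (0.30, edgeR adjusted p = 0.0627) or with the Glycam1 term (0.49, 0.107). Among ST2+ libraries it was at 551, 504, 632 and 719 CPM with vehicle and 543, 710.2, 585 and 563 CPM with IL-33, with overlap and a change of -0.00 ± 0.20 (edgeR adjusted p = 0.991). Rpia, the ribose isomerase, and Rpe, the ribulose epimerase, did not pass in any comparison.

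None of the 4 genes of the HIF axis passed in any comparison by edgeR with all libraries and TMM scaling. Hif1a, the oxygen-regulated subunit of HIF-1, stood at 26.2, 23.4 and 26.6 CPM with vehicle, 50.5, 41.8 and 29.2 CPM with IL-25, 43.1, 39.1 and 28.6 CPM with IL-33 and 33.4, 35.0 and 42 CPM with both cytokines in IL25R+ cells and at 39.9, 37.9, 34.4 and 15.9 CPM with vehicle and 22.7, 31.2, 71.7 and 29.3 CPM with IL-33 in ST2+ cells. Every treated IL25R+ library was above every vehicle library, and the change with IL-25 was 0.67 ± 0.23 (edgeR adjusted p = 0.0526). With DESeq2 size factors in edgeR it was called (edgeR adjusted p = 0.0492), but not by the DESeq2 test itself or with the Glycam1 term. Bnip3, a mitophagy receptor and HIF target, lay between 3.51 and 45.4 CPM. In ST2+ cells it was called higher with IL-33 once IL-33 replicate 2 was left out (1.81, edgeR adjusted p = 0.0156) and in the deeper libraries alone (2.60, edgeR adjusted p = 0.00376), and without that replicate the difference between populations also passed (2.17, edgeR adjusted p = 0.0163). Egln1 and Egln3, the prolyl hydroxylases that mark HIF for degradation, lay between 26.8 and 59.9 CPM and between 3.84 and 19.8 CPM. HIF activity is controlled largely at the protein level, which was not measured.

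Gapdh, the triose phosphate dehydrogenase, is given apart because its replicates disagreed. In IL25R+ cells it stood at 10.5, 8.2 and 3.8 CPM with vehicle, 11.7, 12.8 and 1412 CPM with IL-25, 8.04, 924 and 11.1 CPM with IL-33 and 811, 815 and 913 CPM with both cytokines. In ST2+ cells it stood at 1573, 28.9, 32.7 and 1927 CPM with vehicle and 729, 1503, 2464 and 35.5 CPM with IL-33. The IL25R+ vehicle libraries were all low and the combined-treatment libraries all high, and the other 4 groups each mixed low and high libraries. It passed as higher with IL-25, at 5.92 ± 1.68 (edgeR adjusted p = 0.0197), and with both, at 6.75 ± 1.67 (edgeR adjusted p = 0.00801). The first call rested on replicate 3. Without it the change was 0.65 (edgeR adjusted p = 0.875), and it was also lost without vehicle replicate 1, 2 or 3. The second was lost without vehicle replicate 1 (edgeR adjusted p = 0.0537). In ST2+ cells the change was 0.40 ± 1.23 (edgeR adjusted p = 0.86). The other members did not follow. In IL-25 replicate 3 Gapdh was 6.85 higher on the log2 scale than the mean of its replicates, whereas the 34 other tested members had a median difference of -0.06, from -0.90 for Pfkm to 0.29 for Pfkfb3. In IL-33 replicate 2 the difference was 6.59 for Gapdh and a median of 0.06 for the others, from -0.68 to 0.47. The last 400 bases of Gapdh are shared, in at least 50% of their runs of 40 bases, by 45 entries of other annotated genes. An entry is a gene under a given transcript type, so a gene such as Gm4691 counts more than once. Only Gm12070 of these had a row, with 1 to 7 counts per IL25R+ library and 9 to 22 per ST2+ library against 4 to 2030 and 16 to 5208 for Gapdh. How multiply aligned reads were assigned is not given in the sources used here, so the levels of Gapdh are uncertain and no reading of its regulation is given.

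**Figure D3:**
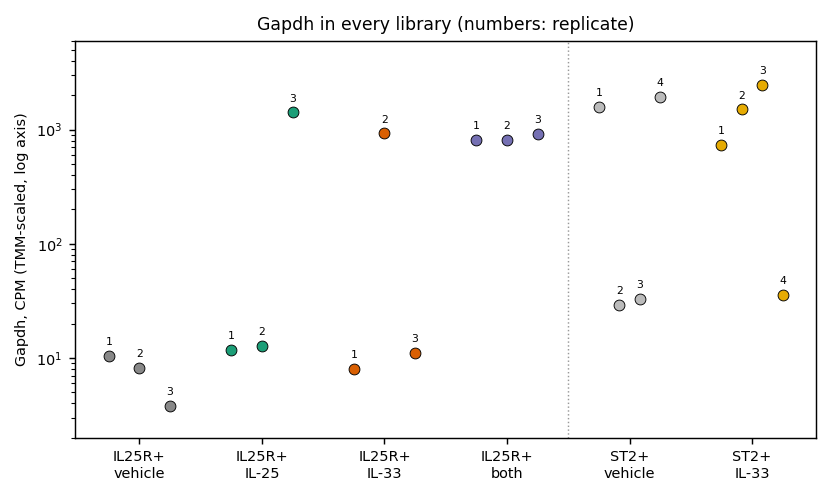
CPM of Gapdh in each of the 20 libraries on a log axis, numbered by replicate. The IL25R+ vehicle libraries lie between 3.8 and 10.5 CPM and those with both between 811 and 913 CPM, and IL-25 replicate 3, IL-33 replicate 2 and ST2+ IL-33 replicate 4 lie apart from their groups.

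Between the treatments of IL25R+ cells the question was whether IL-33 adds to IL-25. Both cytokines against IL-25 alone gave 0 calls among the 35 members by edgeR and 0 by DESeq2, where 3.14% of all genes passed, 1.36% as higher and 1.79% as lower, with 7 members at an unadjusted p under 0.05. The interaction of the cytokines gave 0 calls by either tool, against 2.35% of all genes, 1.04% as higher and 1.31% as lower, with 7 at an unadjusted p under 0.05. The smallest adjusted p of the interaction was for G6pdx, at 0.65 ± 0.21 (edgeR adjusted p = 0.0988). Without IL-33 replicate 3, the 1 IL-33 library on the vehicle side of the Glycam1 split, the interaction called 3 members, G6pdx, Hk1 and Mpc2. Over all genes its calls then moved from 208 to 701. The cause was not tested.

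Both cytokines against IL-33 alone raised 4 members and lowered 0, 11.4% of the 35 against 17.2% of all genes, 9.29% as higher and 7.88% as lower for all genes, while 11.4% of the members were called as higher and 0 as lower. They were G6pdx at 0.82 ± 0.15 (edgeR adjusted p = 0.000454), Mpc2 at 0.75 ± 0.16 (edgeR adjusted p = 0.00297), Tpi1 at 0.53 ± 0.13 (edgeR adjusted p = 0.00877) and Pkm at 0.35 ± 0.12 (edgeR adjusted p = 0.0406). G6pdx and Mpc2 kept the call with each library left out. With the term for the Glycam1 split only G6pdx of the 4 kept it, and the changes were 0.27 for Mpc2 (edgeR adjusted p = 0.358), 0.39 for Tpi1 (edgeR adjusted p = 0.207) and 0.38 for Pkm (edgeR adjusted p = 0.143). Tpi1 lost it without IL-33 replicate 2 or combined-treatment replicate 1 (edgeR adjusted p 0.0546 to 0.0677) and Pkm without IL-33 replicate 1 or combined-treatment replicate 1, 2 or 3 (edgeR adjusted p 0.076 to 0.136) or on plain library totals (0.24, edgeR adjusted p = 0.182).

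IL-33 against IL-25 lowered 6 members and raised 1, 20% of the 35 against 13.8% of all genes, 5.48% as higher and 8.34% as lower. Ldha changed by -0.52 ± 0.13 (edgeR adjusted p = 0.0104), Aldoa by -0.42 ± 0.12 (edgeR adjusted p = 0.0265), G6pdx by -0.51 ± 0.15 (edgeR adjusted p = 0.025), Taldo1 by -0.36 ± 0.11 (edgeR adjusted p = 0.0292), Mpc1 by -0.56 ± 0.17 (edgeR adjusted p = 0.0327) and Eno1 by the value above, and Pfkfb3 was higher by 0.63 ± 0.20 (edgeR adjusted p = 0.0438). None of the 7 calls was kept in every fit that left out 1 library, and on plain library totals, which move the median log2 change of all genes from 0.04 to 0.22, only Pfkfb3 passed. Among the fits that left out 1 library, Ldha lost its call without IL-25 replicate 2 alone (edgeR adjusted p = 0.0577), and on plain totals it stood at -0.34 (edgeR adjusted p = 0.0789).

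A fit of all 20 libraries set the response to IL-33 of one population against that of the other. It was more positive in ST2+ than in IL25R+ cells for 4 of 36 members and more negative for 0, 11.1% against 11.5% of 8964 genes in either direction and 4.66% as more positive. The 4 were G6pdx, with a difference of 1.89 ± 0.33 (edgeR adjusted p = 0.000971), Pkm, with 1.40 ± 0.29 (edgeR adjusted p = 0.0032), Pfkl, with 1.36 ± 0.35 (edgeR adjusted p = 0.0158), and Pgd, with 0.79 ± 0.26 (edgeR adjusted p = 0.0493). Beside the changes given above for ST2+ cells, the IL25R+ values with IL-33 were -0.34 ± 0.15, -0.03 ± 0.12, -0.31 ± 0.21 and 0.22 ± 0.15 on the log2 scale, and none passed by edgeR's adjusted p. G6pdx and Pkm kept the call with each of 20 libraries left out. Pfkl lost it without IL-33 replicate 1 of IL25R+ cells (edgeR adjusted p = 0.0515), and Pgd lost it in 15 of the 20 (edgeR adjusted p 0.0501 to 0.12), on plain library totals (edgeR adjusted p = 0.118) and with the replicate block (edgeR adjusted p = 0.0579). The difference of Ldha, at 1.15 ± 0.39 (edgeR adjusted p = 0.0561), did not pass by edgeR and passed by DESeq2 (adjusted p = 0.0188). The populations also differ in sort, table and number of replicates, which cannot be told apart from the population itself.

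**Figure D4:**
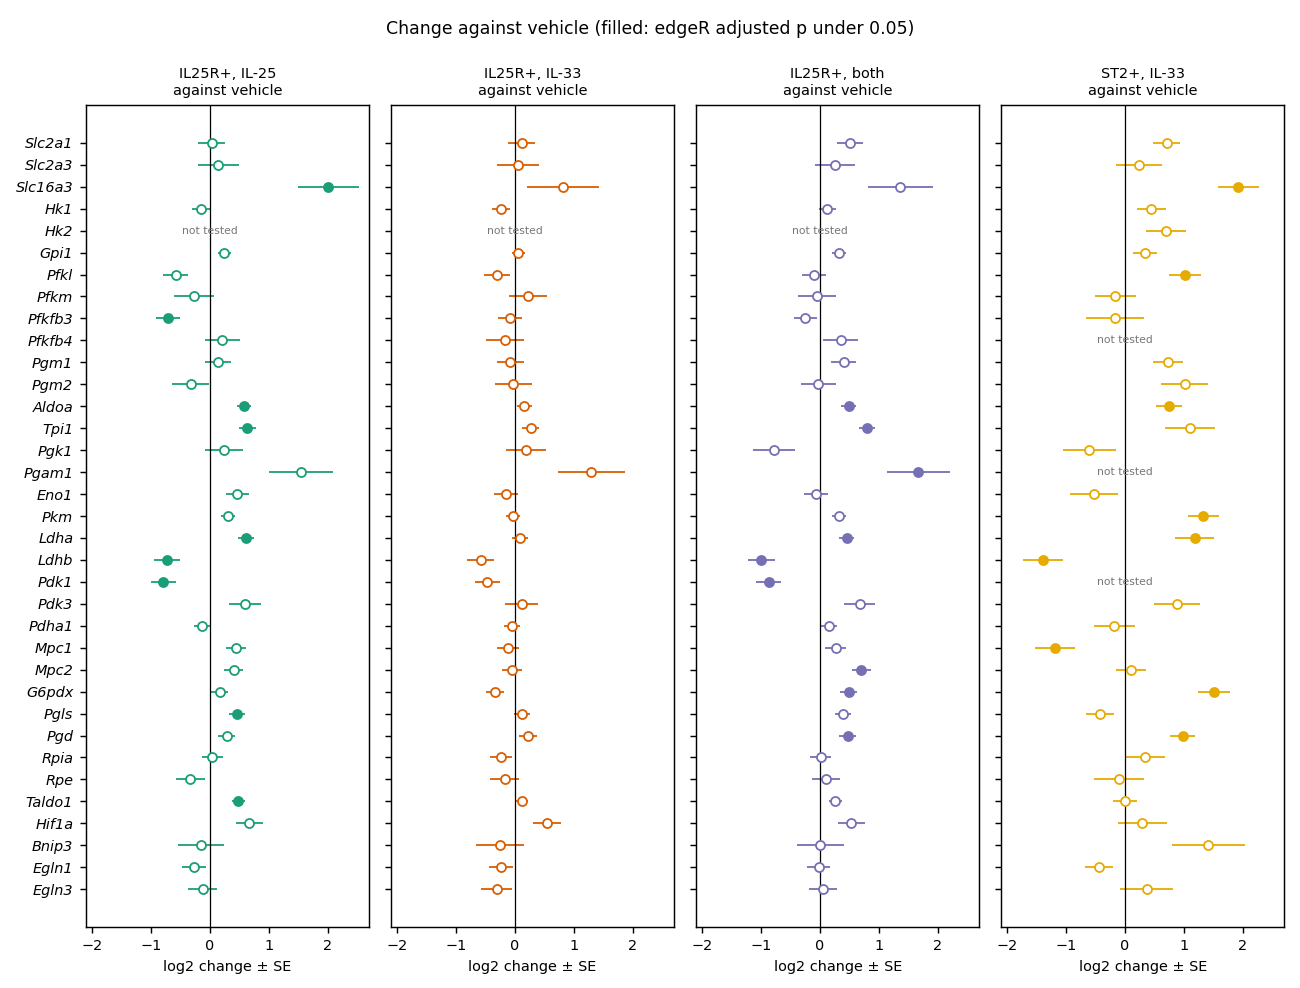
Log2 change against vehicle with its SE for the tested members other than Gapdh, in 4 comparisons, with filled points where the edgeR adjusted p was under 0.05. Filled points lie on either side of 0 with IL-25, with both and with IL-33 in ST2+ cells, and no point is filled for IL-33 in IL25R+ cells.

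Of 75 further genes of these pathways, 57 had a row in IL25R+ cells and 49 were tested, of which 2 rose and 4 fell with IL-25, 0 changed with IL-33, and 2 rose and 3 fell with both. These are 12.2%, 0% and 10.2% of the 49, beside 15%, 0.237% and 15.6% of all genes. In ST2+ cells 43 were tested, of which 7 rose and 3 fell with IL-33, or 23.3% beside 16.5% of all genes. Their median log2 change was -0.13, 0.01, -0.16 and 0.01 in the same order. The alternative fits, with those that left out a library, were followed for members only. Calls of the further genes, many of them near the threshold, were not checked that way. Among the other glycolysis genes Slc2a6, a further hexose carrier, rose by 1.75 ± 0.31 (edgeR adjusted p = 0.0005) with IL-25, by 2.32 ± 0.30 (edgeR adjusted p = 1.19e-05) with both and by 3.09 ± 0.35 (edgeR adjusted p = 0.000566) with IL-33 in ST2+ cells. Bsg, the chaperone that carries MCT4 to the membrane, rose by 0.47 ± 0.14 (edgeR adjusted p = 0.0248) with IL-25 and 1.07 ± 0.19 (edgeR adjusted p = 0.00474) in ST2+ cells. Bpgm, which makes 2,3-bisphosphoglycerate, changed by -0.77 ± 0.18 (edgeR adjusted p = 0.00506) with IL-25, and Eno3, an enolase of muscle, by -0.87 ± 0.28 (edgeR adjusted p = 0.0338) with both.

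Of the other HIF and hypoxia genes, 2 of 12 tested in IL25R+ cells passed and both were lower, 16.7% beside 15% of all genes with IL-25 and 15.6% with both. Kdm3a, a histone demethylase and HIF target, changed by -0.61 ± 0.15 (edgeR adjusted p = 0.00761) with IL-25 and -0.49 ± 0.15 (edgeR adjusted p = 0.0239) with both, and Bnip3l, a mitophagy receptor, by -0.54 ± 0.15 (edgeR adjusted p = 0.0202) and -0.62 ± 0.15 (edgeR adjusted p = 0.00791). In ST2+ cells Bnip3l changed by -2.17 ± 0.56 (edgeR adjusted p = 0.0246), Epas1, which encodes another HIF alpha subunit, by -1.91 ± 0.35 (edgeR adjusted p = 0.00505) and P4ha2, a collagen prolyl hydroxylase, by 2.29 ± 0.44 (edgeR adjusted p = 0.00632). Among glycolysis regulators, Myc rose by 0.73 ± 0.24 (edgeR adjusted p = 0.0435) with both cytokines and Usf2, a factor that binds the same letters as MYC, changed by -0.40 ± 0.13 (edgeR adjusted p = 0.0401) with IL-25. In ST2+ cells Txnip, which restrains glucose uptake, changed by -2.37 ± 0.28 (edgeR adjusted p = 0.000751), and Max and Mlx, dimer partners of the MYC and MondoA families, rose by 0.88 ± 0.22 (edgeR adjusted p = 0.019) and 0.91 ± 0.24 (edgeR adjusted p = 0.0278). Of the pyruvate oxidation and pentose genes, Pdhx, a structural subunit of pyruvate dehydrogenase, rose by 1.10 ± 0.30 (edgeR adjusted p = 0.03) and Prps1, which makes phosphoribosyl pyrophosphate, by 1.41 ± 0.43 (edgeR adjusted p = 0.0466) in ST2+ cells.

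Between the populations the effect of IL-33 differed for 8 of the 53 further genes in that fit, 15.1% beside 11.5% of all genes. It was more positive in ST2+ cells for Slc2a6 at 3.00 ± 0.57 (edgeR adjusted p = 0.00191), Bsg, Pdhx, Prps1 and Mlx and more negative for Txnip at -2.60 ± 0.29 (edgeR adjusted p = 1.73e-05), Bnip3l and Ndrg1, a stress-response gene. In the authors' deposited table, which holds DESeq2 tests over its own gene set, the adjusted p was under 0.05 for 7 members between vehicle and IL-25, 0 between vehicle and IL-33, 10 between vehicle and both, 6 between IL-25 and IL-33, 0 between IL-25 and both, 5 between IL-33 and both and 10 between vehicle and IL-33 in ST2+ cells. These were not all the genes called above by edgeR. All 7 between vehicle and IL-25 were higher with IL-25. Pkm was among them (DESeq2 adjusted p = 0.0495), whereas Slc16a3, Pfkfb3, Ldhb and Pdk1 did not pass (DESeq2 adjusted p 0.0566 to 0.103). Between vehicle and both, Pkm and Pgls passed and Pgam1 and Pgd did not.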

How the data were processed

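RNA was measured by bulk MARS-seq, a 3' end method, in 20 libraries. Per the submitters' processing notes the tools were bcl2fastq, cutadapt, STAR 2.5.2b, HTSeq and DESeq2, with mouse build mm10. The counted unit, reads or molecular identifiers, and how multiply aligned reads were treated, are not given in the sources used here.

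The authors deposited, for each population, a table of counts, of signal (counts divided by size factors), of log2 values and log2 fold changes, and of p-values with their adjusted form. All results start from the counts, with 0 per-sample columns left unmapped. The authors' p-values were used for 1 set of counts and for the genes behind them.

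Genes were filtered with filterByExpr (minimum count 10, minimum total 15, minimum proportion 0.7), library sizes were scaled by TMM, and edgeR 4.0.16 in R 4.3.3 was fitted to each table, and to all 20 libraries together, with a mean per group. P-values were adjusted by Benjamini-Hochberg over all genes of a comparison at 0.05, and the SE is the log2 change over the square root of F. The fit was tested on simulated data. Alternatives were DESeq2 1.42.0, its size factors in edgeR, plain library totals, no filter, the replicate number as a block, a term for the Glycam1 split (above or below 10 CPM) and each library left out. A depth term and the deeper ST2+ libraries alone were added after seeing the data.

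Members and lists were chosen with earlier results of these data known. Values in every library are given for members that passed at least once and for Gapdh, Hif1a, Slc2a1 and Hk2. Of other lists, up to 4 passing genes with the smallest p per comparison are named. Limits from a count of 0 use 3 counts.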

Additional observations from a re-analysis of the deposited data

Results flagged for a closer look

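Of 72 combinations of a member and a group of 4 ST2+ libraries, 6 held a library far from the other 3 by Dixon's test, where chance gives about 1 in 20. Pfkfb4, a fructose 2,6-bisphosphate enzyme that did not pass the filter in ST2+ cells, was at 1.72 CPM in vehicle replicate 3 against 5.18 to 5.42 CPM in the others, and at 8.91 CPM in IL-33 replicate 2 against 5.72 to 6.23 CPM. Pdha1 was at 91.6 CPM in vehicle replicate 1 against 30.7 to 37.4 CPM, and Egln3 at 12.4 CPM in the same library against 6.88 to 7.23 CPM. Gpi1 was at 382 CPM in IL-33 replicate 3 against 578 to 608 CPM, and Pfkm at 30.1 CPM in IL-33 replicate 2 against 12.2 to 15.1 CPM.

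The IL-33 effect differed between the populations by the test of the difference itself for 4 genes, with a log2 difference, ST2+ minus IL25R+, of 1.36 for Pfkl, 1.40 for Pkm, 1.89 for G6pdx and 0.79 for Pgd. These are 11.1% of the 36 members, near the 11.5% of all genes in either direction, with 4.66% of all genes more positive. Pgd lost its call in 15 of the 20 fits that left out 1 library.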

How the results depend on the processing

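Counts of members that passed moved by over 1.5 times in 3 settings. The Glycam1 term gave 4 against 10 with IL-25, plain library totals gave 1 against 7 for IL-33 against IL-25, and the deeper ST2+ libraries alone gave 20 against 9. Calls over all genes moved as well, to 645 from 1325, 1657 from 1223 and 3364 from 1262 in the same order. The cause was not tested, but the last fit holds fewer samples and the Glycam1 term is estimated within the IL-33 group alone. Over all genes, calls with each library left out ran from 832 to 1718 with IL-25, 779 to 1738 with both and 619 to 2581 in ST2+ cells. Among members the count then ran from 5 to 13 with IL-25, 0 to 1 with IL-33, 4 to 13 with both, 0 to 1 for both against IL-25, 2 to 7 for both against IL-33, 1 to 8 for IL-33 against IL-25, 0 to 3 for the interaction, 4 to 15 for IL-33 in ST2+ cells and 2 to 9 for the difference between populations. Libraries behind a move of over 1.5 times were vehicle replicates 2 (6) and 3 (5) with IL-25. With both they were vehicle replicates 1 (4), 2 (6) and 3 (6) and combined replicate 3 (6), and for both against IL-33 they were IL-33 replicate 3 (7) and combined replicate 1 (2). For IL-33 against IL-25 they were IL-25 replicates 2 (1) and 3 (3) and IL-33 replicate 1 (3). In ST2+ cells they were vehicle replicates 1 (4), 2 (5) and 3 (5) and IL-33 replicates 1 (4), 2 (15) and 4 (4), and for the difference between populations IL25R+ IL-33 replicate 1 (2), ST2+ vehicle replicate 4 (7) and ST2+ IL-33 replicate 2 (9).

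Plain totals moved the median log2 change of all genes to -0.205 with IL-25, -0.141 with both, -0.143 for both against IL-33, 0.22 for IL-33 against IL-25 and -0.165 for the difference. Calls then split as 5 higher and 4 lower with IL-25, against 7 and 3, and as 3 and 1 against 4 and 0 for both against IL-33 and for the difference. Over single genes 1426 results kept direction and side of the threshold, 161 lost it, 91 gained it and 1 reversed. That was Gapdh for IL-33 against IL-25, at 4.69 without IL-25 replicate 3 (edgeR adjusted p = 0.0299) and -5.65 without IL-33 replicate 2. DESeq2 gave no adjusted p for Gapdh with IL-25.

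Replicate numbers were not taken as pairs in the main fits. Deviations of same-numbered libraries correlated between -0.148 and 0.154 in IL25R+ cells and 0.015 and 0.291 in ST2+ cells. In ST2+ cells replicates 1 and 3 stood at 0.247 and 0.291, above the threshold of 0.1 set for pairing. In IL25R+ cells replicate 1 of IL-25 and replicate 1 of IL-33, at 0.154, were above it too. Whether samples were paired is thus not settled in either population. With the replicate block 9, 0, 10, 0, 4, 6 and 0 members passed in the IL25R+ comparisons in the order above, 7 in ST2+ cells and 6 for the difference. Depth limits scarce members such as Slc16a3, Pgam1 and Hk2 in IL25R+ cells.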
